A study of Mus musculus with 60 samples.

Results

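Microglia, the resident macrophages of the brain, were followed through 9 of their genes, Cx3cr1, P2ry12, Tmem119, Csf1r, C1qa, C1qb, C1qc, Aif1 and Trem2, among the 47597 entries in each of 60 RNA-Seq tables. The 9 entries were chosen by gene name, and each had 1 entry and a usable estimate in all libraries. The libraries came from cortex or striatum of C57BL/6N mice aged 3 months, untreated, in 10 labelled groups of 6 with 3 males and 3 females each. Within each tissue, 3 groups belonged to the Δ12 line, in which CRISPR/Cas9 editing removed the end of exon 12 of Htt (the huntingtin gene), with the genotypes +/+, Δ12/+ and Δ12/Δ12. The other 2 groups, +/+ and KO/+, belonged to the KO line, which goes back to a founder of the same editing that lost the splice donor of this exon. Each allele derives from a founder and is carried in every cell, and no group carries a further allele or agent. Cortex and striatum libraries with the same label otherwise may come from the same mouse, so the p-values below measure the spread between libraries, not only between mice.

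Microglia derive from the yolk sac and persist by self-renewal that depends on the receptor Csf1r. In the healthy brain they survey neurons through fine processes, guided by Cx3cr1, the receptor for the neuronal chemokine fractalkine, and by P2ry12, a receptor for nucleotides released at sites of injury. They are also the main source of complement C1q in the brain, whose 3 chains are encoded by neighbouring genes and which tags synapses and debris for removal. Tmem119 is a surface protein used to tell microglia from other macrophages, Aif1 (Iba1) is a calcium-binding protein of the actin cytoskeleton used to stain them, and Trem2 is a lipid-sensing receptor that signals through the adaptor Tyrobp.

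The labels could not be taken at face value, and this touches every comparison. The gene of the vesicular glutamate transporter of cortical neurons, Slc17a7, was at 121 to 234 FPKM in 30 libraries and at 4.81 to 64.8 FPKM in the other 30, on the deposited values. These classes are called cortex-like and striatum-like, with the limit at 100 FPKM, and Drd2, a dopamine receptor of striatal neurons, was at 0 to 15.9 in the former and 34.8 to 71.3 in the latter on rescaled values. Each class held 15 libraries labelled cortex and 15 labelled striatum, so the labelled tissue went against the expression in 30 libraries. The cortex-like class held all 12 libraries of Δ12-line +/+, all 12 of Δ12/+ and the 6 labelled male of Δ12/Δ12. The striatum-like class held the 6 labelled female of Δ12/Δ12 and the 24 of the KO line. Xist and Ddx3y, transcripts of the inactive X and of the Y chromosome, were in accord with the labelled sex in 30 of 60 libraries, and Htt was below the whole KO-line +/+ range in 6 of the 12 libraries labelled KO/+. Libraries are named by their labels throughout, none was moved, and class cannot be told apart from line except within Δ12/Δ12. The FPKM of a library, which are fragment numbers scaled to transcript length and to the mapped total, were divided by a median-of-ratios factor between 0.761 and 1.38, and all levels below are rescaled FPKM.

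All 3 C1q genes lie together on the minus strand of chromosome 4 (GRCm38), with C1qb at 136880129-136886187, C1qc at 136889804-136893065 and C1qa at 136895917-136898803. None of the exon bases of these 3, or of Aif1 (chromosome 17, 35170991-35176068, minus), Trem2 (chromosome 17, 48346401-48354147, plus) and Tmem119 (chromosome 5, 113793729-113800516, minus), is shared with another gene of GENCODE M21. Csf1r shares 873 of 5774 exon bases with Hmgxb3 on the other strand, Cx3cr1 (chromosome 9, 119901616-120068283, minus) shares 78 of 4505 with Gm33858, and P2ry12 (chromosome 3, 59216272-59262871, minus) shares 9 of 2546 with Med12l, both also on the other strand. The strand setting behind the FPKM is not given in the sources used here, so a part of Csf1r reads could belong to Hmgxb3.

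Promoters of 6 of the 9 genes are in the RefSeq table (GRCm38.p6). Shown here are the 250 bases before the transcript start of C1qb and C1qc, neighbours whose levels differed between the classes in opposite directions, and of Trem2 and Cx3cr1, which had the largest class differences. Capitals mark GAGGAA or its reverse complement TTCCTC, the core of the sites of PU.1 (Spi1), the myeloid transcription factor.
C1qb: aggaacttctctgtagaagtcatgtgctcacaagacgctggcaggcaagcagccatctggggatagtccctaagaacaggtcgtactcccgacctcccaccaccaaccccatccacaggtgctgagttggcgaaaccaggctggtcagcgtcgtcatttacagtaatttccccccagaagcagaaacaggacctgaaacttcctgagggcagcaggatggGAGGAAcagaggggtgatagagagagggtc
C1qc: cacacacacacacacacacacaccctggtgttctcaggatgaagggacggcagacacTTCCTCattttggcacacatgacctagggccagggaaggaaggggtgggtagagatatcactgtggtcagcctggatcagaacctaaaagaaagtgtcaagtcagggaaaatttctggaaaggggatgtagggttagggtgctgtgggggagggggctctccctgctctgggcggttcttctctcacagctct
Trem2: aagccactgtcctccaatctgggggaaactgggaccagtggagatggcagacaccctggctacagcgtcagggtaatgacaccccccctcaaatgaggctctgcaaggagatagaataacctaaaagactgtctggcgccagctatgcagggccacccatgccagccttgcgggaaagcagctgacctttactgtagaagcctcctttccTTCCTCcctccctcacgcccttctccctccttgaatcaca
Cx3cr1: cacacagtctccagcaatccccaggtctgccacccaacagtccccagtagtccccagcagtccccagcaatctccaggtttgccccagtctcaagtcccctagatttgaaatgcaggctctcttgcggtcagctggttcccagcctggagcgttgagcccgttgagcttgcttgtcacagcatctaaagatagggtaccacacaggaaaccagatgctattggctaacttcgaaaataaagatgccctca
These are chr4:136886201-136886450 (minus strand), chr4:136892915-136893164 (minus), chr17:48346151-48346400 (plus) and chr9:120068297-120068546 (minus), each written 5′ to 3′ on the strand of its gene. The motif began 30 bases before the start in C1qb, on the strand of the gene, and 193 bases before it in C1qc and 40 in Trem2, both on the other strand. These distances count from the RefSeq start. That of C1qc lies inside the gene span given above, which ends at 136893065, so part of its window is within that span. It was in 4 of the 6 promoters, the other one being Aif1, and Cx3cr1 and P2ry12 had no match in this window. Of all 32851 promoters of the table, 23.3% hold it in the same window on either strand.

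The class of a library, not its genotype, went with the largest differences in the microglia genes. In 5 of 9 genes the lowest library of one class was above the highest of the other, 3 higher in cortex-like libraries (C1qa, C1qb, Trem2) and 2 higher in striatum-like libraries (Cx3cr1, Csf1r). With quantile normalization the ranges of C1qa and C1qb overlapped, which left 3. Such separation was common, since of 16076 entries with a mean of at least 0.5 the ranges did not overlap in 36.2%, 16.9% higher in cortex-like and 19.3% higher in striatum-like libraries. The classes are cut from a measured value, so their contrast is a description and has no test. The median difference over the 9 genes, striatum-like minus cortex-like in log2(rescaled FPKM + 0.5), was -0.06, against 0.06 over all entries. In bulk tissue, fewer cells of a type and less RNA per cell cannot be told apart.

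**Figure D1:**
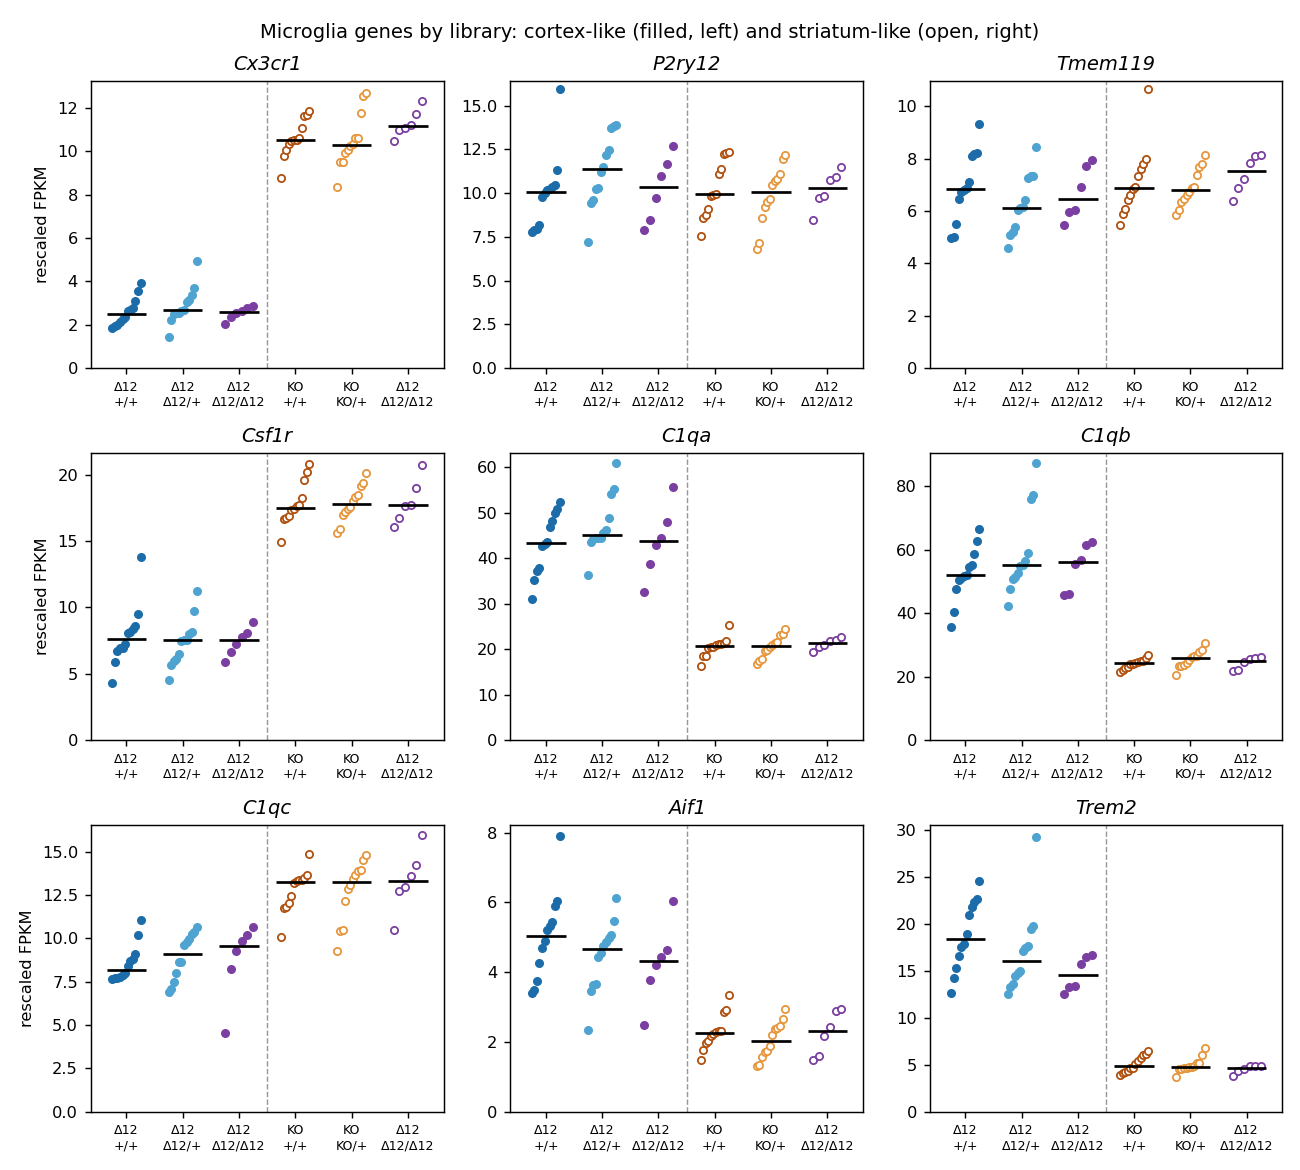
Rescaled FPKM (y axis, from 0) of the 9 genes in each library, by labelled line and genotype (x axis), with cortex-like libraries as filled points on the left of the dashed line and striatum-like libraries as open points on the right; black bars are medians. Cx3cr1 and Csf1r are high on the right, C1qa, C1qb and Trem2 high on the left, and the genotypes within a class overlap in every panel.

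Cx3cr1, the fractalkine receptor, had the widest difference. It was at a lowest of 1.45, a median of 2.64 and a highest of 4.95 in the cortex-like libraries and at 8.37, 10.6 and 12.7 in the striatum-like libraries, with medians 4.02-fold apart. The highest cortex-like library was thus below the lowest striatum-like one. Csf1r, the receptor of the survival signals CSF1 and IL-34 (chromosome 18, 61105572-61132149, plus strand, GRCm38), ran the same way at 4.28, 7.51 and 13.8 against 14.9, 17.7 and 20.8. Its medians differed by 2.35-fold, although the highest cortex-like library lay just under the lowest striatum-like one.

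The other surveillance genes did not follow them. P2ry12 was at 7.19, 10.3 and 15.9 in cortex-like and at 6.79, 9.93 and 12.3 in striatum-like libraries, and Tmem119 was at 4.61, 6.60 and 9.34 against 5.48, 6.90 and 10.7. Both ranges overlapped almost fully, and the mean differences of -0.06 and 0.10 (log2) were below the SD of single libraries, 0.18 to 0.27 in either class. Fragments estimated from the deposited interval bounds were less alike for P2ry12, at medians of 246.5 in cortex-like and 129.3 in striatum-like libraries, than for Tmem119, at 167.5 and 165.3. The reason was not tested, and it limits the level of P2ry12 and ratios built on it. The sign of Tmem119 turned on the deposited FPKM, to -0.24, a scaling that moved the median of all entries from 0.06 to -0.25. The ratio of Cx3cr1 to P2ry12 within a library, which no rescaling changes, was 0.126 to 0.524 in cortex-like and 0.838 to 1.39 in striatum-like libraries.

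Trem2 was the gene with the largest excess in the cortex-like class, at 12.5, 16.6 and 29.2 against 3.67, 4.74 and 6.72, a 3.50-fold difference of medians. Aif1 had the lowest levels of the 9 in the striatum-like class, at 1.31, 2.21 and 3.34, and was at 2.33, 4.66 and 7.90 in the cortex-like class, where the ranges overlapped. Aif1 was also the least precisely measured. The upper bound of the deposited interval lay a median of 58.4% above its value in striatum-like and 34.5% in cortex-like libraries, against 6.79% to 26.9% for the other genes in either class.

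The 3 chains of C1q, which assemble into 1 protein in a fixed proportion, did not keep a fixed proportion of RNA. C1qa was at 31.0, 44.5 and 61.0 in cortex-like and at 16.3, 20.8 and 25.2 in striatum-like libraries. C1qb was at 35.7, 54.6 and 87.2 against 20.6, 24.6 and 30.7, so both were higher in every cortex-like library. C1qc, which lies between them, was at 4.54, 8.64 and 11.0 against 9.29, 13.2 and 16.0, higher in the striatum-like class by 1.53-fold in the medians with overlapping ranges. Within a library the ratio of C1qb to C1qa was nearly the same in both classes, at a median of 1.22 (0.943 to 1.91) in cortex-like and 1.20 (1.03 to 1.40) in striatum-like libraries. The ratio of C1qc to C1qa was 0.102 to 0.254 in the former, with a median of 0.204, and 0.461 to 0.826 in the latter, with a median of 0.622. Being ratios within libraries, these do not depend on the scaling.

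**Figure D2:**
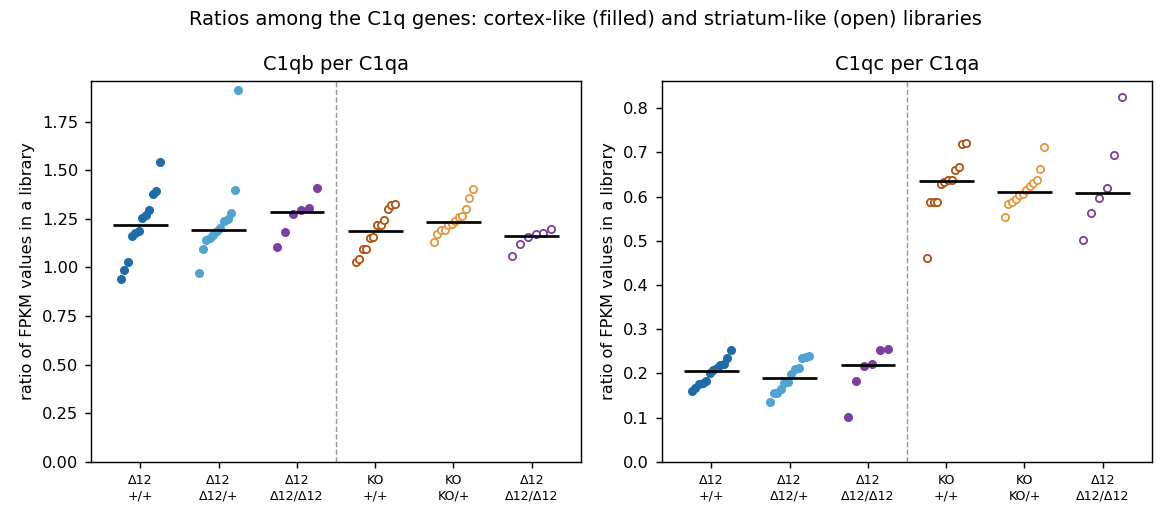
Ratio of FPKM within each library (y axis, from 0), C1qb to C1qa on the left and C1qc to C1qa on the right, by labelled line and genotype, with cortex-like libraries filled and striatum-like libraries open; bars are medians. The left panel shows 1 level of about 1.2 in both classes, and the right panel shows a median of 0.204 against 0.622 with no library between 0.254 and 0.461.

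The order of the genes by level per kilobase therefore changed with class. In striatum-like libraries the medians ran C1qb, C1qa, Csf1r, C1qc, Cx3cr1, P2ry12, Tmem119, Trem2 and Aif1, and in cortex-like libraries C1qb, C1qa, Trem2, P2ry12, C1qc, Csf1r, Tmem119, Aif1 and Cx3cr1. The ranges of neighbours in these orders overlapped, except for Trem2 above Aif1 in striatum-like and C1qa above Trem2 in cortex-like libraries, where every library of the first was above every library of the second. Summed over the 9 genes, the level was 127.2 to 202 (median 156) in cortex-like and 92.5 to 126.9 (median 112) in striatum-like libraries. C1qa and C1qb weighed most in this sum, with medians of 44.5 and 54.6 in cortex-like and 20.8 and 24.6 in striatum-like libraries. Cx3cr1 and Csf1r were apart in the other direction, so the sum is not read as an amount of microglial RNA.

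The libraries labelled Δ12/Δ12 are the only ones of 1 labelled genotype in both classes, 6 labelled male in the cortex-like and 6 labelled female in the striatum-like class. Cx3cr1 was at 2.06, 2.59 and 2.85 in the former and at 10.5, 11.2 and 12.3 in the latter. Trem2 was at 12.5, 14.5 and 16.7 against 3.79, 4.70 and 4.91, and the ratio of C1qc to C1qa at 0.102, 0.219 and 0.254 against 0.501, 0.607 and 0.826. The ranges of the classes were thus apart within the 1 genotype too, although labelled sex and class cannot be told apart there. Xist and Ddx3y did not follow the labelled sex in all of these libraries. Xist had a median of 21.3 in those labelled male and 31.8 in those labelled female. Ddx3y had medians of 0 and 0.0230, with highest values of 23.5 and 7.32. With all 60 libraries split by labelled tissue instead of class, the 9 genes had no range apart and mean differences of -0.11 to 0.07.

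The class difference went with transcript length over the whole table. Over 12987 protein-coding entries with a GENCODE M21 length, the difference had a Spearman rho of 0.45 with the length of the longest protein-coding transcript, given as a description because entries share their libraries. The eighth of entries with the shortest transcripts, up to 1424 nt, had a median difference of -1.06, and the eighth with the longest, from 6394 nt, a median of 0.78. Most of the 9 genes lay near the entries of their length. C1qa (1040 nt, -1.09), C1qb (1088 nt, -1.13) and Aif1 (875 nt, -0.93) were within 0.13 of the median of the shortest eighth, and P2ry12 (2344 nt) and Tmem119 (2242 nt) within 0.20 of that of theirs. Trem2 (1088 nt, -1.69) was 0.63 below that median, C1qc (1203 nt, 0.54) was 1.59 above it, and Cx3cr1 (4493 nt, 1.83) and Csf1r (4701 nt, 1.22) were 1.38 and 0.77 above that of their eighth. Among the entries of like length, C1qc stood at percentile 91.5 and Cx3cr1 at percentile 94.2. Depth moved with class as well, estimated from the interval bounds at 12700000 to 19400000 fragments in cortex-like and 16400000 to 27500000 in striatum-like libraries. So did Hbb-bs, a red-cell globin, at 427 to 1520 against 45.2 to 89.0. The other 2 blood cell markers listed overlapped, Hba-a1 at 32.8 to 133 against 18.9 to 42.1 and Alas2 at 0 to 5.74 against 0.58 to 1.72. The part of length, depth and blood in the class differences was not tested.

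**Figure D3:**
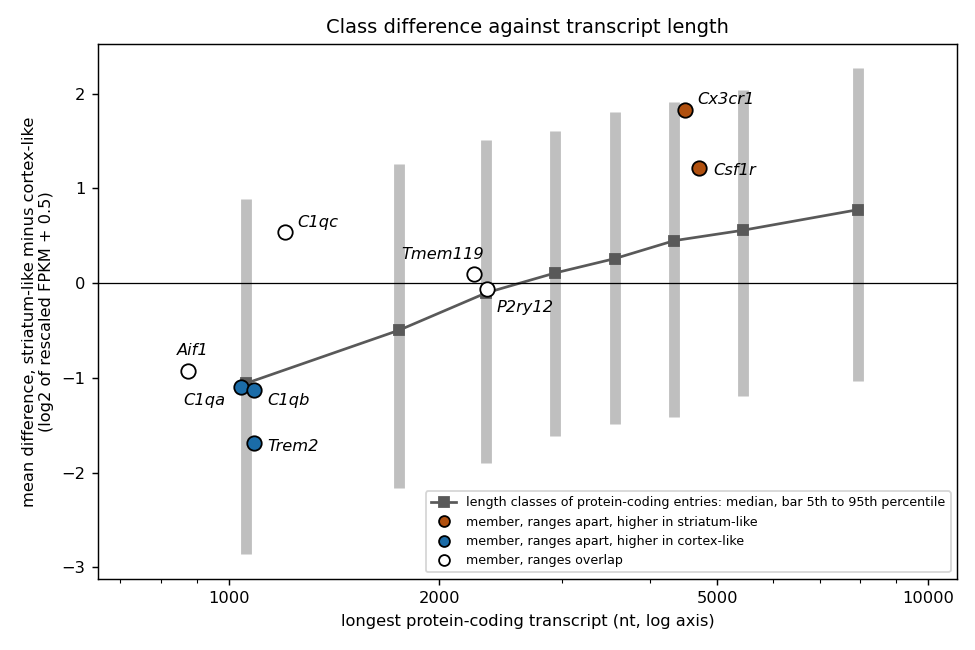
Mean difference between classes, striatum-like minus cortex-like in log2(rescaled FPKM + 0.5) (y axis), against the length of the longest protein-coding transcript (x axis, log scale). Grey squares and bars are the median and the 5th to 95th percentile of each eighth of the protein-coding entries, and circles are the 9 genes; C1qa, C1qb and Aif1 sit at the median of the shortest eighth, while C1qc lies 1.59 above it and Cx3cr1 1.38 above that of its own.

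Of 8 ligands and partners of these receptors, 3 had ranges apart, all higher in cortex-like libraries, and 5 overlapped, a share close to the 36.2% of all entries. Cx3cl1, which encodes fractalkine, was at 81.2, 117 and 153 in cortex-like and 85.0, 132 and 181 in striatum-like libraries, so the ligand overlapped where its receptor did not. Of the Csf1r ligands, Il34 was at 19.1, 28.4 and 38.9 in cortex-like and 7.52, 11.7 and 15.2 in striatum-like libraries, opposite to the receptor, while Csf1 was low, at 0 to 2.37 against 1.97 to 4.25. Tyrobp, the adaptor of Trem2, was at 27.8, 43.8 and 65.0 against 6.80, 8.87 and 12.3 and differed in the same direction as Trem2. Their ratio within a library, Trem2 to Tyrobp, overlapped between the classes at 0.263 to 0.642 and 0.357 to 0.763. Adam10, a protease that sheds fractalkine and Trem2, was higher in cortex-like libraries at 21.8 to 41.0 against 13.6 to 16.2. Adam17, a related protease, was at 0.112 to 2.67 against 2.56 to 6.33, Tgfb1, a cytokine that keeps the microglial state, at 0 to 3.80 against 1.46 to 3.06, and Entpd1 (CD39), which degrades the nucleotides upstream of P2ry12, at 0.863 to 24.9 against 3.23 to 31.3.

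Other microglia genes were split in the same manner. Of 19 tested, 4 were higher in every cortex-like library, 5 were higher in every striatum-like library and 10 overlapped, with a median difference of 0.33. Of all entries, 16.9% were apart in the first direction and 19.3% in the second, and nothing particular to the list is read from these counts. Gpr34, a lysophospholipid receptor, had medians of 13.8 against 3.00, and Fcrls, an Fc receptor-like protein, 14.4 against 4.22, both higher in the cortex-like class, as was the Fc receptor gene Fcgr3. Laptm5, a lysosomal membrane protein, was at 1.03 against 8.56, the transcription factor Sall1 at 0.785 against 3.41 and the protease Ctss at 6.98 against 21.3, and these and Mertk, a phagocytic receptor, were higher in the striatum-like class. Itgam (CD11b) has 2 entries of its name, of which the first was counted, also higher in the striatum-like class.

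Of 14 genes of reactive microglia, 7 had a mean of at least 0.5 and all 7 overlapped between the classes. The highest were Lpl, a lipoprotein lipase, with medians of 2.79 in cortex-like and 9.19 in striatum-like libraries, Axl, a phagocytic receptor, with 3.94 and 7.22, Spp1 with 4.12 and 5.68, and Cd68, a lysosomal protein, with 2.85 and 4.68, levels that lie among those of the 9 genes. The other 7 had a mean below 0.5. Among these, Cst7, Tnf and Ccl3 had a median of 0 in both classes, Itgax medians of 0.0137 and 0.0344, and Clec7a medians of 0.667 and 0.104. Of 11 complement genes other than C1q, 6 had a mean of at least 0.5 and overlapped, among them C4b, of the classical pathway after C1, at medians of 1.33 and 4.02, and C3 was listed at medians of 0.0260 and 0.208. Ranges were apart in 36.2% of all entries, and nothing particular to either list is read from the overlap.

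Macrophages of the brain borders and blood leukocytes share several of the 9 genes. Their 7 border markers, Mrc1, Lyve1, Cd163, Pf4, F13a1, Cbr2 and Ms4a7, summed to 1.29 to 9.12 in cortex-like and 0.931 to 2.45 in striatum-like libraries, against 127.2 to 202 and 92.5 to 126.9 for the 9 genes. The 7 leukocyte markers summed to 0 to 6.32 and 0 to 2.10, and Cd3e, which defines T cells, had a median of 0 in both. P2ry12 and Tmem119, which mark microglia among macrophages, were above 4.6 in every library.

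No microglia gene passed the test between the libraries labelled KO/+ and +/+ of the KO line. Htt itself was at 16.6, 17.5 and 20.7 in +/+ and at 12.7, 17.0 and 20.0 in KO/+, so the groups overlapped in the edited gene. In this line, 12 libraries labelled KO/+ were compared with 12 labelled +/+, all striatum-like, by limma on log2(rescaled FPKM + 0.5) with labelled tissue and sex as covariates. None of the 9 genes passed a Benjamini-Hochberg adjusted p of 0.05, while 1506 of 15917 entries, 9.46%, passed (594 higher and 912 lower in KO/+, or 108 and 2174 on the deposited FPKM). None of the 9 had an unadjusted p under 0.05 in limma, against 3956 of the 15917 entries. The largest of the 9 differences was that of Aif1, -0.15 ± 0.12 (SE, adjusted p = 0.46), and the smallest adjusted p that of C1qb, 0.08 ± 0.05 (adjusted p = 0.38). Csf1r was at 14.9, 17.5 and 20.8 in +/+ and at 15.6, 17.8 and 20.1 in KO/+, and its 95% interval ran from -0.10 to 0.10. Trem2 was at 3.90, 4.87 and 6.49 against 3.67, 4.74 and 6.72, with an interval from -0.20 to 0.16. Over the 9 genes, the intervals reached no further than -0.39 and 0.19.

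Some of the other listed genes passed in this comparison. Cx3cl1, the ligand of Cx3cr1 made by neurons, was higher in KO/+ by 0.24 ± 0.07 (adjusted p = 0.036), a call kept in 8 of 12 alternatives and lost among others on the deposited FPKM (0.11, adjusted p = 0.48) and with libraries labelled cortex alone (0.13, adjusted p = 0.65). Spp1, the gene of the secreted protein osteopontin counted among reactive genes, was lower by 0.37 (log2 fold change -0.37, adjusted p = 0.029), a call lost with libraries labelled cortex alone (-0.28, adjusted p = 0.49) and kept in the other 11 alternatives. The other 5 reactive genes tested did not pass, with Lgals3 at 0.46, Cd68 at 0.26, Lpl at 0.26, Cd74 at 0.19 and Axl at -0.17, and the median of the 6 was 0.22. The other 7 partners and all 19 other microglia genes tested did not pass. Beside them, all 4 oligodendrocyte markers tested were lower in KO/+, among them Mag by a log2 of -0.37 and Mog by -0.37, as were 2 of 5 astrocyte markers, Aqp4 and Gja1, and 2 of 5 cortical neuron markers were higher, among them Neurod6 by 0.87. The summed cortical neuron markers were at 14.3, 19.5 and 38.6 in +/+ and at 12.5, 40.7 and 87.8 in KO/+, and the summed oligodendrocyte markers at 722, 934 and 1071 against 644, 747 and 905. The part of these markers in the differences of Cx3cl1 and Spp1 was not tested.

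The KO/+ difference was also compared between the labelled tissues. For all 9 genes the estimate was larger in libraries labelled striatum than in those labelled cortex, by 0.03 (Aif1) to 0.34 (C1qc), and for Csf1r by 0.29 ± 0.07 (adjusted p = 0.27). The interaction passed for no entry of 15917, with 1788 and 4 of the 9 genes at an unadjusted p under 0.05. Libraries labelled striatum alone gave 0.14 for Csf1r (adjusted p = 0.12), the smallest adjusted p of any of the 9 genes in any comparison or alternative. In that set 1093 entries passed, against 14 with the libraries labelled cortex alone.

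**Figure D4:**
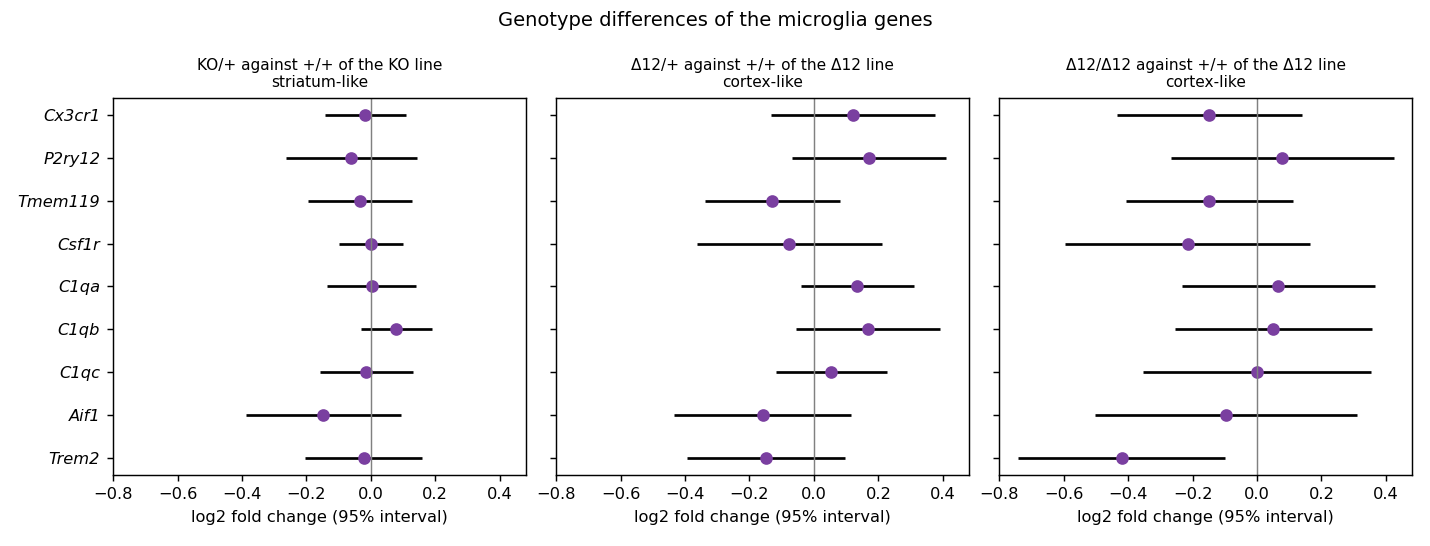
Log2 fold change (x axis, points) with its 95% interval (lines) for the 9 genes in the 3 genotype comparisons, from limma. Of 27 intervals, that of Trem2 in Δ12/Δ12 against +/+ lies below 0, with -0.42, and it did not pass the adjusted threshold.

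The Δ12 allele was compared in the cortex-like class, where Htt was at 4.81, 9.81 and 11.2 in +/+, at 6.66, 8.42 and 11.0 in Δ12/+ and at 7.64, 8.08 and 10.1 in Δ12/Δ12. With 1 copy (12 libraries labelled Δ12/+ against 12 labelled +/+), none of the 9 genes passed and none had an unadjusted p under 0.05. Of all 15173 entries 0% passed in limma, with 1027 at an unadjusted p under 0.05. The differences ran from -0.16 ± 0.13 (Aif1) to 0.17 ± 0.12 (P2ry12), and the intervals from -0.43 to 0.41. Sex as expressed was not balanced between these groups. Xist had a median of 10.0 in +/+ and 0.00582 in Δ12/+, and Ddx3y 0.0105 against 20.6. The labelled sex used as covariate does not carry this. With sex from Xist and Ddx3y as covariate, P2ry12 and Csf1r turned in sign, and none of the 9 genes passed (smallest adjusted p = 0.72, limma). C1qa was at 31.0, 43.3 and 52.4 in +/+ and at 36.2, 45.1 and 61.0 in Δ12/+, and Cx3cr1 at 1.83, 2.49 and 3.95 against 1.45, 2.67 and 4.95. The interaction with labelled tissue passed for no entry, with 969 entries and 3 of the 9 genes, C1qc, Aif1 and Trem2, at an unadjusted p under 0.05. That of Aif1 was 0.71 ± 0.22 (adjusted p = 0.73).

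With 2 copies (6 libraries labelled Δ12/Δ12, all labelled male, against the same 12 labelled +/+), 0.0657% of 15230 entries passed, which is 10 (3 higher and 7 lower, or 27 and 9 with quantile normalization), and none of the 9 genes. At an unadjusted p under 0.05 in limma were 1511 entries and 1 of the 9 genes, Trem2. Trem2 came nearest. It was at 12.6, 18.3 and 24.5 in +/+ and at 12.5, 14.5 and 16.7 in Δ12/Δ12, so the highest Δ12/Δ12 library lay below the +/+ median, but the ranges overlapped. The fold change was -0.42 ± 0.15 on the log2 scale (95% interval -0.74 to -0.10, unadjusted p = 0.014, adjusted p = 0.36 by limma), and its adjusted p was 0.18 to 0.95 over the alternatives. Against the same control libraries, Δ12/+ gave -0.15 ± 0.12 for Trem2. Tyrobp, its adaptor, was 0.10 ± 0.13 in Δ12/Δ12 (adjusted p = 0.86).

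The other 8 genes had intervals that contained 0 in Δ12/Δ12, from -0.60 for Csf1r to 0.42 for P2ry12, and C1qc was at 0.0006 ± 0.17. Among the partners, Adam10 gave 0.34 ± 0.10 (adjusted p = 0.26) and none passed. Of all listed genes 1 passed, Cldn5, the tight-junction protein of endothelial cells, at -0.79 ± 0.13 (adjusted p = 0.042). It passed in 6 of 13 alternatives of the limma fit, with an adjusted p of 0.017 to 0.89. The call was lost without the sex covariate (-0.57, adjusted p = 0.18) and with sex from Xist and Ddx3y (-0.60, adjusted p = 0.15). It was also lost with the replicate block (adjusted p = 0.13) and within either labelled tissue alone. The summed endothelial markers, a sum that holds Cldn5 itself, were at 38.2, 53.7 and 72.1 in +/+ and 35.3, 37.6 and 45.1 in Δ12/Δ12. The other markers in it did not pass in limma, with adjusted p of 0.56 to 0.86. These were Pecam1 at -0.32, Flt1 at -0.41, Tek at -0.36 and Slco1a4 at -0.15. In the striatum-like class the libraries labelled Δ12/Δ12 had no +/+ of their own line. Their values lay beside those of the KO line, for example P2ry12 at 8.46, 10.3 and 11.5 against 7.55, 9.93 and 12.3 in KO-line +/+, and were not compared further.

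Within a class the microglia genes moved together in part. Of 36 pairs, the median Pearson's r over 30 libraries was 0.38 in the striatum-like class, with 11 pairs over 0.5 and 5 below 0. It was 0.01 in the cortex-like class, with 2 pairs over 0.5 and 17 below 0. These are descriptions over libraries that share genotypes and scaling and may share mice. The pair with the highest r in both classes was C1qa and C1qb, at 0.68 in each. C1qc went with C1qa at 0.56 and with P2ry12 at 0.67 in the striatum-like class, but at 0.26 and 0.35 in the cortex-like class. Cx3cr1 and Csf1r had an r of 0.64 in the cortex-like and 0.48 in the striatum-like class, whereas Csf1r and C1qa turned from -0.55 to 0.60. Trem2 and Aif1 had no pair over 0.5 in the striatum-like class. Their r ran from -0.26 to 0.39, which overlapped pairs among the other genes, such as Cx3cr1 and Tmem119 at 0.16. Trem2 and Aif1 also had the fewest fragments there as estimated from the interval bounds, at medians of 55.5 and 11.7. The other genes had medians of 129 to 786, and the part of counting error in these r was not tested.

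**Figure D5:**
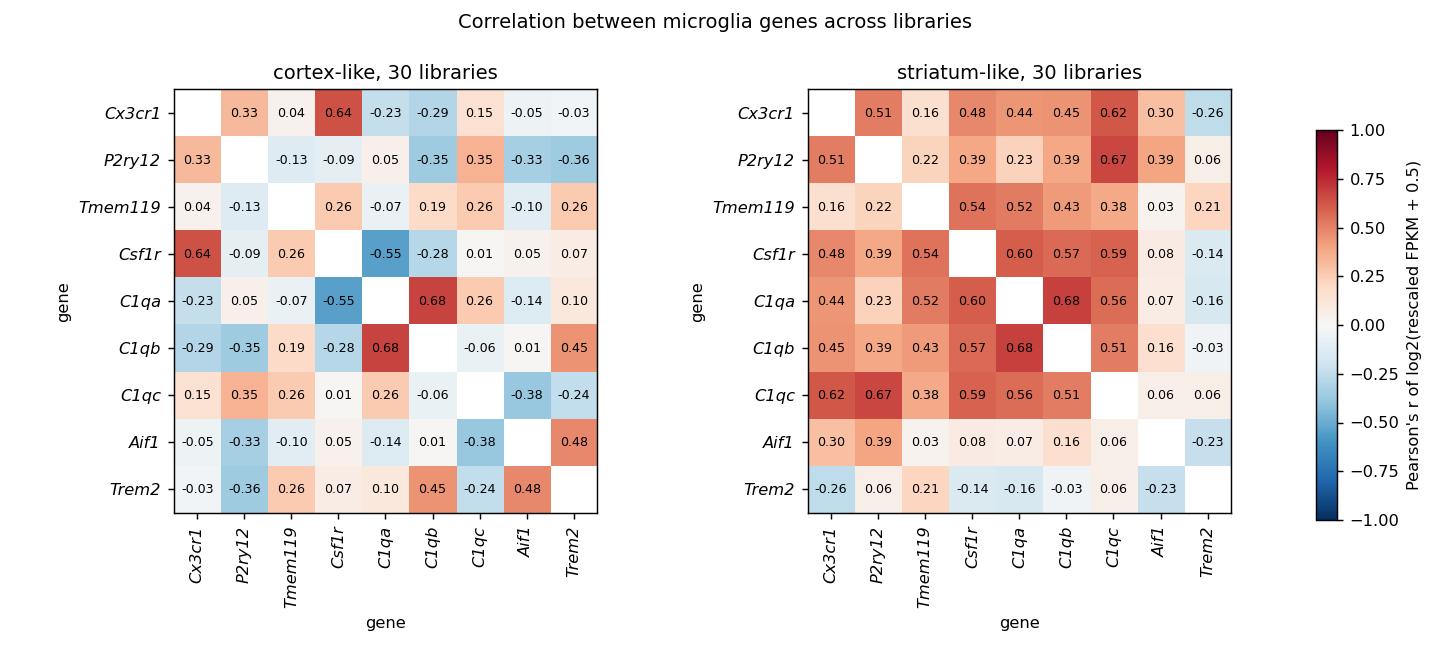
Pearson's r of log2(rescaled FPKM + 0.5) between each pair of the 9 genes over the 30 cortex-like (left) and the 30 striatum-like libraries (right), with the scale from -1 in blue to 1 in red. The striatum-like block from Cx3cr1 to C1qc is positive throughout, and the cortex-like block is mixed, with C1qa and C1qb at 0.68 and Csf1r and C1qa at -0.55.

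The spread between libraries was greater in the cortex-like class. The coefficient of variation was 15.5% to 25.8% for the 9 genes there and 8.35% to 15.7% in the striatum-like class, Aif1 at 24.5% excepted. In log2 terms the SD of Cx3cr1 was 0.30 against 0.13, and entries of like level had a median SD of 0.34 and 0.15, so this width was shared with other genes of the level. P2ry12 was wider than entries of its level in the striatum-like class, at 0.22 against 0.16.

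Genes outside the 9 were ranked by their correlation with the mean of the 9 centred log2 values, over 12388 entries with a mean of at least 1 in both classes, by the lower of the r in each class. The first 10 were Necab2 (0.60), Gm9774 (0.53), Serpine2 (0.51), Rragd (0.50), Ptpre (0.48), Dhx29 (0.48), Olfml3 (0.48), Akt1 (0.48), Vipas39 (0.47) and Ppp1r1b (0.46). Olfml3 is a gene of microglia and was in the list of other microglia genes, while Necab2, a neuronal calcium-binding protein, and Ppp1r1b, the DARPP-32 of striatal projection neurons, are genes of neurons. The 9 genes themselves had a lower r of 0.10 (P2ry12) to 0.52 (Cx3cr1) with their own mean, so a rank in this list sets no gene apart from the 9.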

How the data were processed

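RNA was rRNA-depleted and made into directional libraries. The labels' processing notes name bcl2fastq 2.20, Trimmomatic 0.30, TopHat2 2.0.14, SAMtools 1.3, HTSeq 0.6.1p1 and GRCm38.p4. The authors deposited 1 table of FPKM per library, in the layout of Cufflinks, with interval bounds and no counts. The tool behind the FPKM is not given in the sources used here. FPKM divide by length but can keep a length bias that differs between libraries.

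Entries whose status was not OK in some library, 23 in all, were dropped, and 47574 were used. Libraries were scaled by the median of ratios over 13235 entries above 0 in all 60. Depth was estimated from the bounds of genes with 1 transcript of at least 2000 nt and 20 fragments, taking the half-width as 2 Poisson SDs, so it covers counting error only. For each comparison, limma 3.58.1 (R 4.3.3) was fitted to log2(rescaled FPKM + 0.5) over entries with a mean of at least 0.5, with labelled tissue and sex as covariates, and Benjamini-Hochberg adjustment at 0.05. The scale understates changes of low genes. The script was tested on simulated data. Groups were taken from the labels. The line of 1 library (KO/+ female3, striatum) is given as Δ12 in its title but as KO in its genotype label, which was followed. The genes, lists and tests were chosen with earlier results of these data known. Listed genes are named where they passed, or where class ranges were apart (up to 5 per list), and partners always; genes named beside these were chosen after their values were seen. Lengths and overlaps are from GENCODE M21, and promoters from RefSeq. The alternatives were other scalings, pseudocounts, filters, covariates, weights and sets of libraries, and a block for the replicate number. A few of the listed genes are not reported here by name.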

Additional observations from a re-analysis of the deposited data

Results flagged for a closer look

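In 72 sets of 6 libraries with the same labelled group (9 genes in 8 groups that lie in 1 class), 7 sets held a library far from the other 5, beyond the 95% limit of Dixon's test. Chance flags about 1 set in 20. In the cortex libraries labelled KO-line +/+, male3 had Tmem119 at 10.7 against 6.62 to 7.98 in the others and Aif1 at 3.34 against 1.75 to 2.28. In those labelled cortex Δ12-line +/+, female1 had P2ry12 at 15.9 against 7.78 to 10.5, and this library also had the lowest Htt of all, 4.81. In cortex Δ12/+, female2 had C1qc at 6.90 against 9.61 to 10.7. In striatum KO-line +/+, male1 had Csf1r at 14.9 against 16.6 to 17.6. In striatum Δ12-line +/+, male2 had P2ry12 at 11.3 against 9.77 to 10.3. In striatum Δ12/+, female2 had Trem2 at 29.2 against 17.1 to 19.7.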

How the results depend on the processing

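None of the 9 genes passed in any of the 342 values under the alternatives, with a smallest adjusted p of 0.12 (limma), and 314 kept their sign. All values below are log2 differences or counts of entries. No count of members called changed.

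In KO/+, the entries passing were 2282 on deposited FPKM (108 higher and 2174 lower, against 594 and 912) and 14 with libraries labelled cortex alone. Libraries labelled striatum alone turned Cx3cr1 to 0.11, P2ry12 to 0.10, Tmem119 to 0.13, Csf1r to 0.14, C1qc to 0.15 and Trem2 to 0.018. C1qa, at 0.0025, turned to -0.13 on deposited FPKM, -0.0047 with quantile normalization, -0.0074 with sex read from Xist and Ddx3y, -0.12 with labelled cortex and -0.011 with array weights. C1qb turned to -0.050 on deposited FPKM and -0.018 with labelled cortex.

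In Δ12/+, 10 entries passed with labelled cortex alone and 1 with labelled striatum alone. Sex from Xist and Ddx3y turned P2ry12 to -0.032 and Csf1r to 0.075, and labelled striatum turned C1qc to -0.12, Aif1 to 0.20 and Trem2 to 0.096.

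In Δ12/Δ12, the 10 entries became 36 with quantile normalization, 4 with no filter, 35 with all libraries of the class, 47 with array weights, 0 with the replicate block (1541 at an unadjusted p under 0.05), and 16 without the library labelled cortex Δ12-line +/+ female1, an alternative chosen after seeing the data. Labelled striatum turned P2ry12 to -0.24, C1qa to -0.26, C1qb to -0.051, C1qc to -0.31 and Aif1 to 0.16, and array weights turned C1qa to -0.053 and C1qb to -0.052. C1qc, at 0.0006, turned to -0.0019 with a pseudocount of 0.1, -0.0031 without sex and -0.025 with all libraries of the class. The cause of these moves was not tested.

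Between the classes, 3 of the 9 ranges stayed apart with quantile normalization (Cx3cr1, Csf1r and Trem2) and 4 on deposited FPKM (without Csf1r). With tissue as labelled, 0 were apart, and Csf1r turned to -0.052, C1qa to 0.060, C1qb to 0.063 and Trem2 to 0.068.

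Libraries of a comparison with the same number and labelled tissue but different genotype had deviations correlated at -0.23 to 0.08. The numbers thus showed no pairing between genotypes, whose libraries come from different mice by their labels. Whether cortex and striatum libraries with the same label otherwise come from the same mouse was not tested. The replicate block goes by the number, not by the mouse, so it does not answer this either. With the replicate block, 1261 entries passed in KO/+ and 0 in Δ12/+ and in Δ12/Δ12, with none of the 9 genes; the calls of Cx3cl1 (adjusted p = 0.062) and Cldn5 (adjusted p = 0.13) were lost there. Counts of fragments are not in the tables used, and the intervals limit low genes such as Aif1, whose upper bound lay a median of 58.4% above its value in striatum-like libraries.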
